A study of Mus musculus with 7 samples.

Results

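The comparison set 2 Smart-seq2 libraries of mouse MII oocytes matured with BYBX, a fluorescent ligand of RNA G-quadruplexes (rG4s), beside 3 libraries of MII oocytes matured with its solvent DMSO. These 5 libraries were chosen by their sample titles out of 7 in the series, and the other 2 hold GV oocytes. The labels give the GV libraries no treatment, whereas the study's methods describe GV controls as exposed to DMSO. Each library held 10 oocytes. The oocytes came from 4-week-old female mice of C57BL/6 background, primed with 5 IU of PMSG and killed 44 h later, and the MII stage was reached after 16 h in M16 medium. The labels give no dose of BYBX, and the study names 1 μM where it combines these mRNA levels with ribosome profiling. Whether oocytes without a polar body were left out is not given in the sources used here, and nothing states that the libraries came from separate animals. The p-values therefore measure the spread between libraries, which may be technical. The libraries are pools, so fewer oocytes with a transcript and less of it per oocyte cannot be told apart.

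A fully grown oocyte stores maternal mRNA and transcribes almost nothing from the resumption of meiosis on. Between the GV and MII stages a part of this store is deadenylated and degraded, while transcripts with a cytoplasmic polyadenylation element (CPE), a U-rich signal near the 3′ end, can gain a longer poly(A) tail and be translated. An rG4 is a stacked fold of guanine runs within an RNA. Reverse transcription was primed with oligo-dT, so a value reflects RNA that carries a poly(A) tail, and deadenylation alone can lower it.

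Levels are FPKM, a fragment count scaled to transcript length and library size, which the authors further scaled to the ERCC spike-in. Of 25908 entries, 7820 had a mean of the 2 MII group means of at least 1 FPKM and were tested with limma on log2(FPKM + 1). Since 2076 of these had a mean under 1 FPKM with DMSO, they passed only through their level with BYBX and had to be higher there. That holds for each gene named below with such a DMSO mean. Counts are therefore also given under a GV filter, which kept the 10331 entries averaging 1 FPKM or more in GV and uses neither MII group. A DMSO filter kept 5750 entries averaging 1 FPKM or more with DMSO, of which 2900 (50.4%) were higher and 4 (0.0696%) lower, with a median of 0.67. A second limma fit used the percentile rank of each entry among the 7820 in its library, from 0 to 100, which no scale factor of a library can alter. An entry near the top has little room to gain rank.

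The deposited values summed to 109732 to 127254 FPKM with DMSO, to 246710 and 201482 FPKM with BYBX and to 489569 and 402113 FPKM in GV. The number of reads is unknown. All 12 defining oocyte markers were tested and 11 were called higher with BYBX, beside 63.4% of all tested entries. Of the 13 markers of granulosa and cumulus cells only 1 was tested, and it was not called. These 13 summed to 2.1 to 2.47 FPKM with DMSO and to 3.6 and 3.83 FPKM with BYBX, with Ptx3 at 0 in every MII library. Theca and stroma markers reached at most 1.07 FPKM in sum, leukocyte markers at most 0.0607 FPKM and erythrocyte markers at most 1.13 FPKM in sum, the latter in the first BYBX library.

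Transcripts were higher with BYBX almost throughout, but by very unequal amounts. Of the 7820 entries, 4960 (63.4%) were higher and 4 (0.0512%) lower at an adjusted p under 0.05, and the median difference was 0.89 on the log2 scale, with an interquartile range of 0.43 to 1.69. Under the GV filter, 6443 of 10331 (62.4%) were higher and 2 (0.0194%) lower, with a median of 0.75. The size and the sign of the median rest on the scale, since it was 0.25 with every library set to the same total and -0.39 with libraries centred on their medians. The same total gave 2950 entries (37.7%) higher and 734 (9.39%) lower, and median centring 1692 (21.6%) higher and 3199 (40.9%) lower. In rank, 1888 entries (24.1%) were higher and 2518 (32.2%) lower with BYBX, and 978 of the 1888 had passed the filter only through BYBX. Both BYBX libraries lay above all 3 with DMSO for 6043 entries (77.3%). Of the 4960 entries higher in level, 398 were lower in rank, 1888 were higher in rank and 2674 had no rank call.

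Grouped by the level with DMSO, the median difference was lower in the higher groups. The level with DMSO is itself subtracted in the difference, and the entries under 1 FPKM passed only through BYBX, so a part of this order is built in and the medians are a description. Among entries under 1 FPKM with DMSO the median difference was 1.62, among those at 1 to 10 FPKM 0.77, at 10 to 100 FPKM 0.49, at 100 to 1000 FPKM 0.39 and among the 12 entries of at least 1000 FPKM 0.16. None of these 12 was called. Entries of at least 1 FPKM numbered 5564, 5724 and 5851 in the libraries with DMSO and 8639 and 8541 with BYBX, beside 10534 and 10034 in GV. The 100 most abundant entries took 43.2%, 43.8% and 43.5% of the total FPKM with DMSO, 34.5% and 33.9% with BYBX, and 28.6% and 29.7% in GV. The MII groups did not overlap in either measure, with p = 0.1 for each by a two-sided exact permutation test, the smallest value that 2 libraries against 3 allow.

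**Figure D1:**
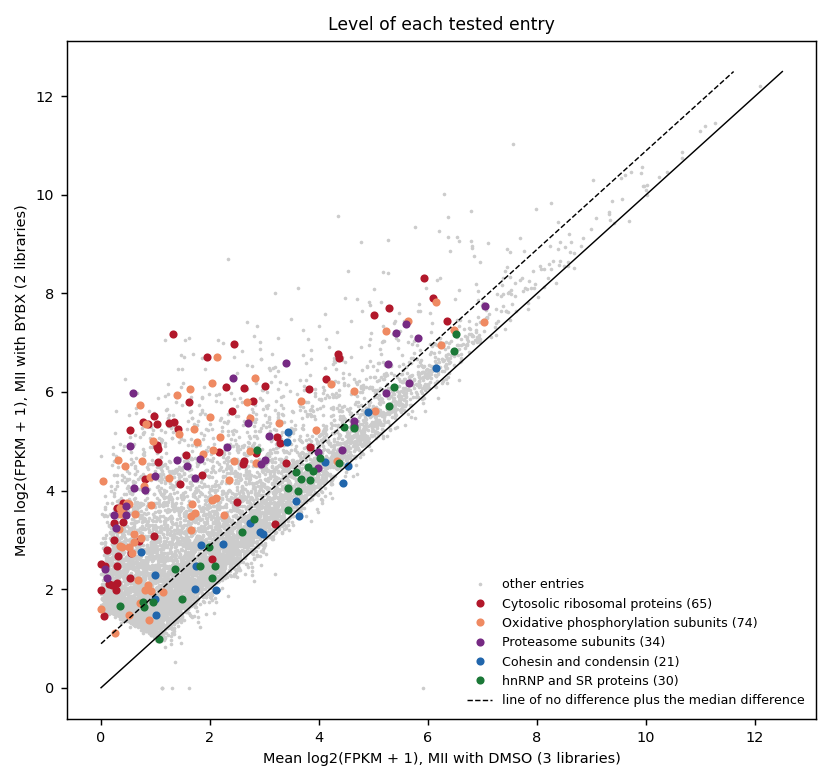
Mean log2(FPKM + 1) of each of the 7820 tested entries, with DMSO on the x axis and with BYBX on the y axis, with 5 functional classes in colour. The solid line marks no difference and the dashed line the median difference of 0.89. Ribosomal, oxidative phosphorylation and proteasome transcripts lie mostly above the dashed line, cohesin, condensin, hnRNP and SR protein transcripts mostly below it.

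The entries of highest level with DMSO had almost the same level with BYBX. Bcl2l10, an anti-apoptotic BCL2 relative abundant in oocytes, had 3411, 4779 and 5102 FPKM with DMSO and 6022 and 3683 FPKM with BYBX. Pttg1, which encodes securin, had 1897, 2504 and 3087 FPKM with DMSO and 3404 and 2316 FPKM with BYBX. H1f8, the oocyte linker histone, had 1693, 2042 and 2384 FPKM with DMSO and 2818 and 2234 FPKM with BYBX. In all of these the groups overlapped, and the log2 differences of 0.11, 0.20 and 0.31 were not called (limma adjusted p = 0.679, 0.462 and 0.207). Hpf1, a cofactor of PARP enzymes, was at -0.03. Under the same total and under median centring these 4 differences were negative.

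The largest rises started from nearly nothing. Ftdc1 had 2.67, 6.10 and 3.90 FPKM with DMSO and 521 and 331 FPKM with BYBX, a log2 difference of 6.37 (standard error 0.309, limma adjusted p = 9.69e-10). Fam162a, a mitochondrial protein induced by hypoxia, had 0.507, 0.539 and 0.0736 FPKM with DMSO and 95.8 and 60.6 FPKM with BYBX, a difference of 5.83. Ckb, the brain-type creatine kinase, had 0.174, 0.106 and 0.352 FPKM with DMSO and 40.2 and 57.0 FPKM with BYBX, a difference of 5.34. The 10 largest rises were picked among called entries of at least 10 FPKM in the higher MII group whose libraries did not overlap. Separation of the groups in these 3 genes was therefore set by the choice. Fam162a and Ckb also passed the filter only through BYBX. The 10 largest rises further included Chchd2, Rps13, Timm17a, Psmb7, Mrpl12, Paip2 and Speer5-ps1.

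Transcripts of the cytosolic ribosome had a class median far above that of all entries. The cytosolic ribosome had 80 entries listed, of which 65 passed the filter and 25 of these only through BYBX. Of the 65, 63 (96.9%) were higher and none lower, with a median difference of 2.52, against 63.4% higher and 0.89 over all entries. Under the GV filter 69 of 73 were higher with a median of 2.40, against 0.75. The class median was 1.15, 1.66 and 1.38 log2(FPKM + 1) with DMSO and 4.92 and 4.58 with BYBX, beside 6.31 and 6.19 in GV. In rank, 52 of the 65 gained and 1 lost, beside 24.1% and 32.2% of all entries. Among the 2076 entries that passed only through BYBX, 978 gained and 210 lost rank. The median member of the class moved up by 27.2 percentile points. Under the DMSO filter it moved up by 29.4 points, against -3.36 over all entries of that filter. The class took 0.289% to 0.534% of the total FPKM with DMSO, 1.52% and 1.27% with BYBX, and 1.74% and 2.14% in GV. Reads of ribosomal protein genes can be split with processed pseudogenes, so single members are uncertain.

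Rps13 (GRCm38 chromosome 7, 116331505 to 116334195, minus strand), a protein of the small subunit, had 1.60, 2.43 and 0.774 FPKM with DMSO and 170 and 120 FPKM with BYBX, a log2 difference of 5.84 (standard error 0.303, limma adjusted p = 1.08e-09). Rpl13a, a large subunit protein, showed the smallest difference among members of at least 10 FPKM, with 11, 14.4 and 14.5 FPKM against 35.7 and 22.9 FPKM. Its difference of 1.06 (limma adjusted p = 0.00294) turned to -0.22 after median centring and was not called without the first BYBX library, where it was 0.75.

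Of the translation initiation factors, matched by symbol and so including the eIF2 kinases, 57 were listed, 47 tested, 29 higher and none lower, with a median of 1.27 and 19 gains and 9 losses of rank. Their share higher, 61.7%, was near the 63.4% of all entries, of which 24.1% gained and 32.2% lost rank. Eif3g, a subunit of the eIF3 complex, rose from 1.52, 2.33 and 1.25 FPKM to 103 and 73.7 FPKM (log2 difference 5.05, limma adjusted p = 1.08e-09). Under the DMSO filter 16 of 35 members were higher and 1 was lower, beside 50.4% and 0.0696% of all entries of that filter. Among these members the class median was 0.66, almost that of all such entries, 0.67. Their median rank shift was -1.50 points, against -3.36 over all such entries. Of 23 tested aminoacyl-tRNA synthetases, which load tRNAs with amino acids, 19 were higher with a median of 1.49, and under the GV filter the median was 0.80 over 31. Rars, the arginyl-tRNA synthetase, rose from 1.36, 1.46 and 1.31 FPKM to 50.7 and 40.0 FPKM. All 13 elongation and release factors were tested, and 12 were higher with a median of 1.40.

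Mitochondrial classes had high medians as well, and their counts stand beside 63.4% of all entries higher in level, 24.1% higher in rank and 32.2% lower in rank. Oxidative phosphorylation subunits had 79 entries listed, 74 tested and 34 of these passed only through BYBX. Of the 74, 68 were higher with a median of 2.34, and under the GV filter 73 of 79 were higher with a median of 2.17. In rank 46 gained and 3 lost, with a median gain of 25.3 points. Under the DMSO filter the median gain was 17.4 points, against -3.36 over all entries of that filter. Mitochondrial ribosomal proteins had 71 of 79 tested, 67 higher, a median of 2.05 and 46 gains against 6 losses of rank. Of the 71, 30 passed only through BYBX, and under the DMSO filter 36 of 41 were higher with a median of 1.62, against 0.67 over all entries. Their median rank shift was 17.3 points over the 71 and 9.71 points under the DMSO filter. Mitochondrial import and CHCHD proteins had 31 of 39 tested, 27 higher, a median of 1.81 and 15 gains against 3 losses. Of the 31, 12 passed only through BYBX, and under the DMSO filter 15 of 19 were higher with a median of 1.65. The median rank shift was 12.1 points over the 31 and 13.9 points under the DMSO filter.

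As in other classes, the members named next were picked for the largest and smallest difference at 10 FPKM or more in the higher MII group. A wide contrast between them is therefore set by the choice. Over all 74 tested oxidative phosphorylation subunits the interquartile range was 1.625 to 3.257. Sdhd and Mrpl12, the largest of their classes, passed the filter only through BYBX. Sdhd, a membrane anchor of succinate dehydrogenase, had 0.441, 1.04 and 0.523 FPKM with DMSO and 63.9 and 42.3 FPKM with BYBX, a log2 difference of 5.01 (limma adjusted p = 1.08e-09). Sdha, the flavoprotein of the same enzyme, had 21.0, 21.5 and 15.2 FPKM with DMSO and 22.3 and 24 FPKM with BYBX. Its difference of 0.27 was not called (limma adjusted p = 0.395) and was -1.01 after median centring. With DMSO the level of Sdhd was far below that of Sdha, and with BYBX it was above it.

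Mrpl12 had 0.275, 0.336 and 1.31 FPKM with DMSO and 53.5 and 71.9 FPKM with BYBX (log2 difference 5.32, limma adjusted p = 1.2e-09). Mrpl3, another large subunit protein of the mitochondrial ribosome, had 19.3, 21.4 and 19.4 FPKM against 26.6 and 28.0 FPKM, a difference of 0.43 that was not called (limma adjusted p = 0.142) and turned negative after median centring. The same contrast held in the inner membrane translocase. Timm17a had 1.94, 2.53 and 1.79 FPKM against 140 and 129 FPKM, a difference of 5.47, and Timm23 20.6, 19.8 and 21.5 FPKM against 25.5 and 26.8 FPKM, a difference of 0.33 that was negative under both other scalings. Chchd2 (chromosome 5, 129881156 to 129887470, minus strand), a mitochondrial protein with a twin CX9C domain, had 0.840, 1.38 and 1.60 FPKM against 184 and 94.2 FPKM.

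Proteasome and chaperone transcripts rose likewise. Of 34 tested proteasome subunits, 11 of which passed only through BYBX, 30 were higher with a median of 2.43, and 23 gained and 1 lost rank. With a DMSO mean of at least 1 FPKM the median was 1.63 over 23 subunits. The median rank shift was 20.9 points over the 34, but 4.62 points under the DMSO filter. Psmb7, a catalytic subunit of the core particle, rose from 0.280, 0.899 and 0.412 FPKM to 88.5 and 43.9 FPKM (log2 difference 5.39, limma adjusted p = 1.35e-09). It passed the filter only through BYBX and was picked as the largest of its class. Psmd1, a scaffold of the regulatory particle, had 27.5, 20.0 and 15.3 FPKM against 25.9 and 28.7 FPKM, so that the groups overlapped (log2 difference 0.40, limma adjusted p = 0.248, and -0.88 after median centring). Of 46 tested chaperones 38 were higher with a median of 1.54, among them Cct5 of the CCT ring, from 2.35, 2.12 and 3.44 FPKM to 99.5 and 104 FPKM. Of the 46, 9 passed only through BYBX, and under the DMSO filter 28 of 37 were higher with a median of 1.37. Among deubiquitinases, which remove ubiquitin, 29 of 48 (60.4%) were higher, with a median of 0.66 and 8 gains against 18 losses of rank. For all entries the shares were 63.4% higher in level, 24.1% higher and 32.2% lower in rank.

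**Figure D2:**
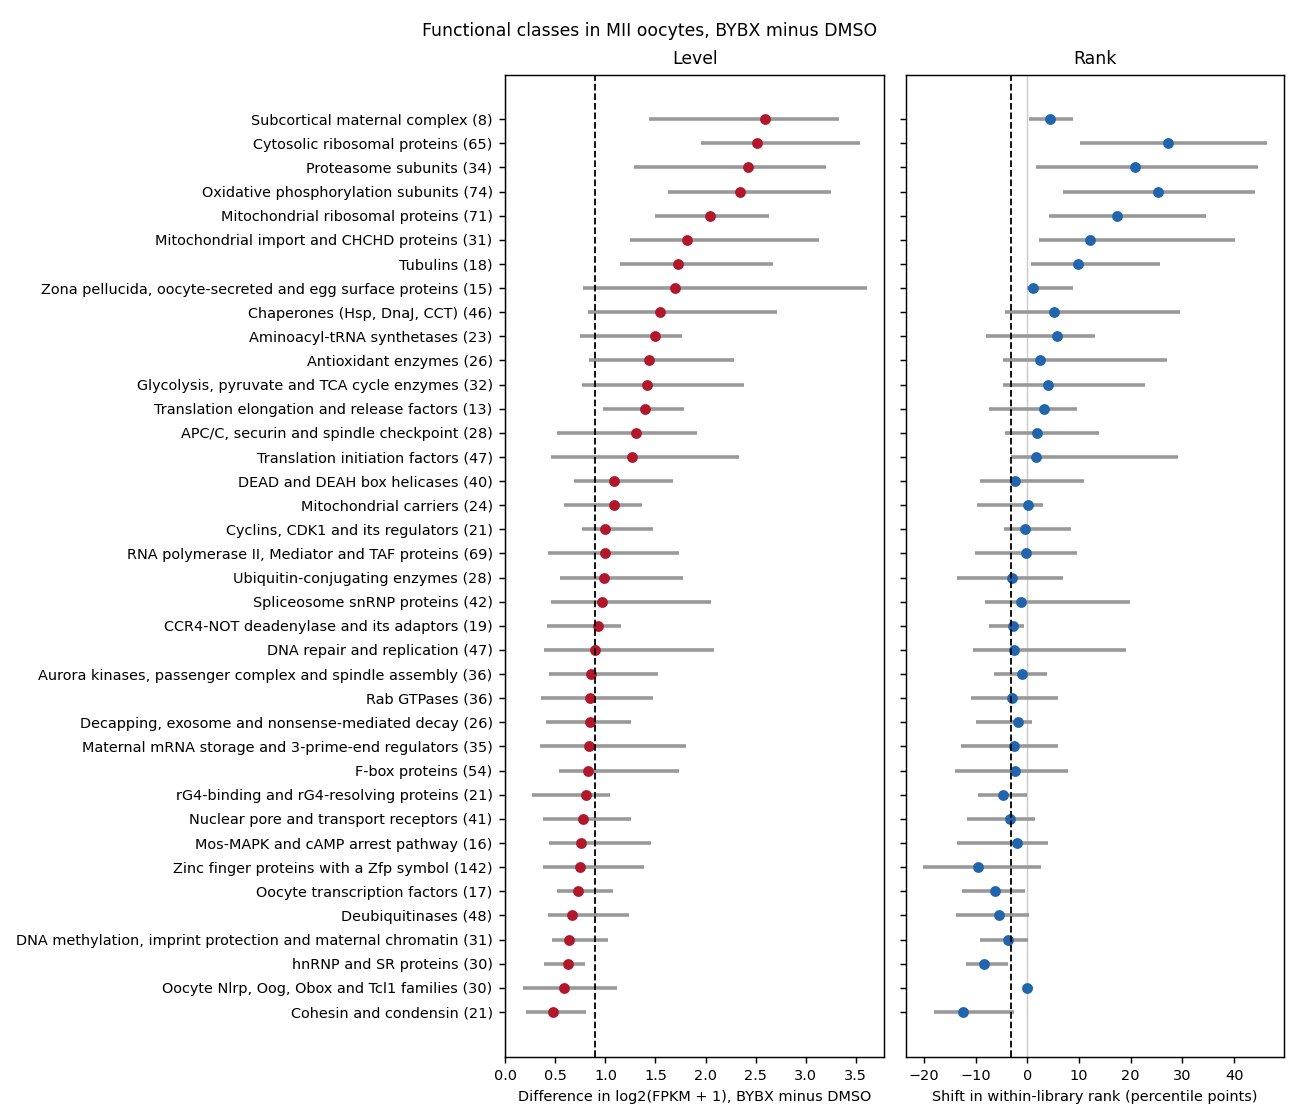
Median (point) and interquartile range (grey bar) over the tested members of 38 functional classes, as log2 difference in the left panel and shift in within-library percentile rank in the right panel, BYBX minus DMSO. Numbers in parentheses are tested members and dashed lines mark the medians over all 7820 entries, 0.89 and -3.17 points. The class medians run from 0.48 for cohesin and condensin to 2.59 for the subcortical maternal complex.

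Oocyte-specific transcripts split into families with large and with small rises. All 8 listed members of the subcortical maternal complex, a cytoplasmic assembly needed by the early embryo, passed the filter at a DMSO mean of at least 1 FPKM. Of these 6 were higher, with a median of 2.59. This was the highest of the 38 class medians on the deposited scale and after median centring, but at the same total its 1.75 lay below the cytosolic ribosome at 2.10, oxidative phosphorylation at 2.01 and the proteasome at 1.89. In rank 5 gained and none lost, beside 24.1% and 32.2% of all entries. The median gain was only 4.39 points, since the members stood at the 94.9th to 95.4th percentile in the median with DMSO already. Khdc3 (chromosome 9, 73101836 to 73104438, plus strand) had 18.9, 22.4 and 43.3 FPKM with DMSO and 649 and 426 FPKM with BYBX, a log2 difference of 4.26 (standard error 0.324, limma adjusted p = 1.37e-08). Ooep, its partner in the complex, had 24.4, 43.8 and 48.4 FPKM against 764 and 385 FPKM. Nlrp5 had 31.3, 17.2 and 22.5 FPKM against 141 and 211 FPKM, and Padi6 215, 240 and 309 FPKM against 743 and 943 FPKM. Zbed3 had 2779, 1842 and 1981 FPKM against 2914 and 2479 FPKM, so its groups overlapped (log2 difference 0.31, limma adjusted p = 0.305, and -0.97 after median centring).

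Zona pellucida, oocyte-secreted and egg surface proteins had 15 of 16 entries tested, 12 higher (80.0%, beside 63.4% of all entries) and a median of 1.69. Zp2 and Zp3, glycoproteins of the egg coat, had larger differences than Zp1. Zp3 had 73.4, 59.3 and 106 FPKM with DMSO and 1144 and 942 FPKM with BYBX, a log2 difference of 3.73, and Zp2 47.0, 35.9 and 87.4 FPKM against 580 and 724 FPKM, a difference of 3.59. Zp1 had 127, 87.9 and 131 FPKM against 410 and 458 FPKM, a difference of 1.92. The difference between these genes was not tested. Cd9, a tetraspanin of the egg membrane needed for sperm fusion, rose from 2.2, 1.63 and 5.29 FPKM to 82.4 and 92.0 FPKM.

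The growth factors Gdf9 and Bmp15, secreted by the oocyte to its cumulus cells, showed smaller differences. Bmp15 had 246, 225 and 180 FPKM against 425 and 508 FPKM, a log2 difference of 1.11 (limma adjusted p = 0.00104), which turned to -0.17 after median centring. Gdf9 had 947, 1003 and 972 FPKM against 1686 and 1348 FPKM, a difference of 0.63 (limma adjusted p = 0.0194) that was negative under both other scalings. It was not called without the first BYBX library or without the second library with DMSO, at 0.47 and 0.65. Oosp1 had 932, 1663 and 1541 FPKM against 1734 and 1136 FPKM, with overlapping groups.

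The oocyte Nlrp, Oog, Obox and Tcl1 families had a low class median. Of 32 entries 30 were tested, 14 (46.7%, beside 63.4% of all entries) were higher and none lower. Their median of 0.59 was -0.29 at the same total and -0.69 after median centring. The median rank shift was -0.13 points. Oas1h, an oocyte-expressed member of the oligoadenylate synthetase family placed with this class, rose from 14, 11.7 and 10.6 FPKM to 147 and 159 FPKM (log2 difference 3.56). Omt2b had 117, 350 and 281 FPKM with DMSO and 266 and 156 FPKM with BYBX, with overlapping groups and a difference of -0.15. Among oocyte transcription factors, 9 of 17 were higher with a median of 0.72. Nobox rose from 6.61, 6.05 and 7.27 FPKM to 92.2 and 110 FPKM, and Figla from 0.114, 0.0324 and 0.0929 FPKM to 11.4 and 9.03 FPKM, whereas the class median was -0.10 at the same total.

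**Figure D3:**
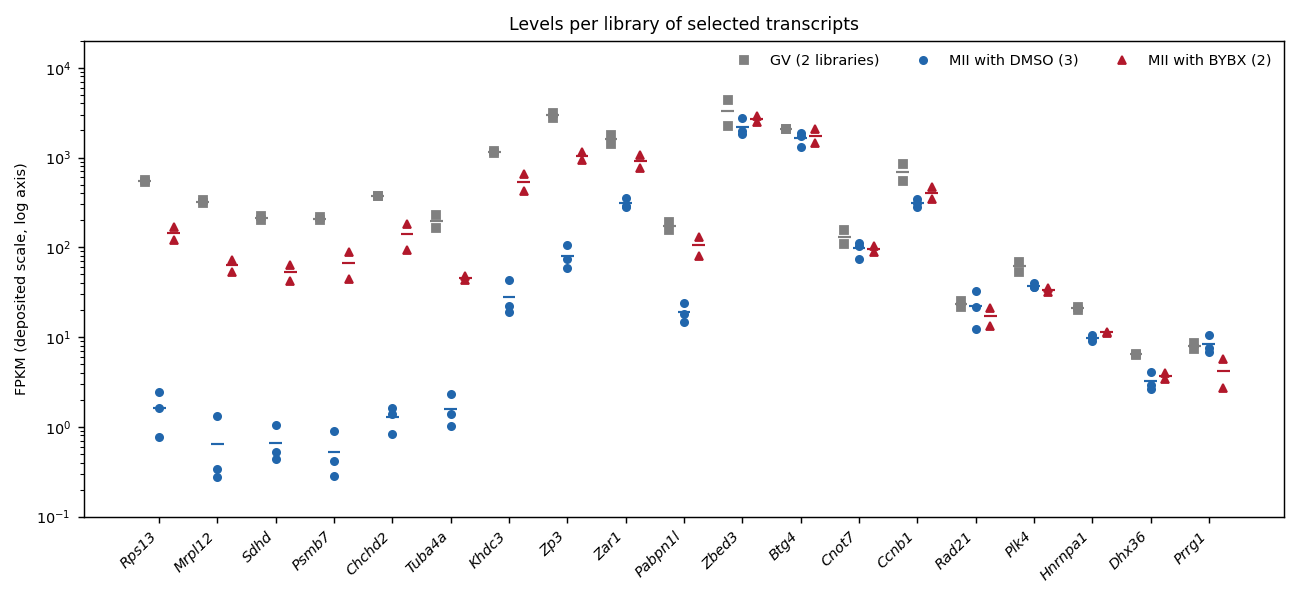
Deposited FPKM in each library on a log axis for 19 transcripts, with squares for GV, circles for MII with DMSO and triangles for MII with BYBX, and a short line at each group mean. From Rps13 to Tuba4a the DMSO libraries lie at 0.275 to 2.43 FPKM and the BYBX libraries at 42.3 to 184 FPKM. For Btg4, Cnot7 and Rad21 the MII groups overlap.

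Regulators of maternal mRNA moved in both sizes too. Of 44 storage and 3′ end regulators 35 were tested, 21 (60.0%) were higher and none lower, and the median was 0.84. Both values lay near those of all entries, 63.4% and 0.89. Zar1 (chromosome 5, 72576806 to 72581254, minus strand), a zygote arrest protein that binds stored mRNA, had 286, 279 and 358 FPKM with DMSO and 1070 and 770 FPKM with BYBX. Its log2 difference of 1.57 (standard error 0.243, limma adjusted p = 2.91e-05) was 0.29 after median centring, where it was not called, and its rank moved by 0.30 points (limma adjusted p = 0.507), from 99.3 to 99.5 with DMSO to 99.7 with BYBX. Its paralog Zar1l rose from 0.563, 1.26 and 1.17 FPKM to 65.7 and 32.9 FPKM, a difference of 4.59. Pabpn1l (chromosome 8, 122619471 to 122622739, minus strand), an oocyte poly(A)-binding protein that directs decay, had 14.7, 17.9 and 23.8 FPKM against 130 and 79.4 FPKM (log2 difference 2.40, limma adjusted p = 2.69e-06). Elavl2, an AU-rich element binding protein, had 15.9, 26.5 and 13.3 FPKM against 19.8 and 16.5 FPKM, with overlapping groups.

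Of 19 tested members of the CCR4-NOT deadenylase and its adaptors, 11 were higher, with a median of 0.92, and 3 gained and 2 lost rank. The share higher, 57.9%, was near the 63.4% of all entries, of which 24.1% gained and 32.2% lost rank. Btg4 (chromosome 9, 51060901 to 51119875, plus strand), which recruits the deadenylase to maternal mRNA, had 1317, 1720 and 1899 FPKM with DMSO and 2054 and 1443 FPKM with BYBX. Cnot7, a catalytic subunit, had 113, 104 and 74.3 FPKM against 89.7 and 104 FPKM, and Cnot8, its paralog, 59.4, 89.5 and 79.8 FPKM against 123 and 83.2 FPKM. In all 3 genes the groups overlapped and no difference was called (limma adjusted p = 0.755, 0.96 and 0.202). Cnot9, another subunit, rose from 1.39, 2.04 and 1.09 FPKM to 12.4 and 12.7 FPKM (log2 difference 2.45). Among decapping, exosome and nonsense-mediated decay factors 14 of 26 (53.8%) were higher with a median of 0.84. The smallest and largest among members of at least 10 FPKM were Upf1 at 0.10 and the exosome subunit Exosc5 at 3.73.

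Tubulins, which build the spindle, were high in the order of classes. Of 18 tested tubulins and tubulin complex proteins 16 (88.9%) were higher, with a median of 1.72 and 8 gains of rank without a loss. Among all entries 63.4% were higher, 24.1% gained and 32.2% lost rank. Tuba4a had 1.01, 1.38 and 2.31 FPKM with DMSO and 47.4 and 42.7 FPKM with BYBX, a log2 difference of 4.20 (limma adjusted p = 4.65e-09). Tubb3 had 53.0, 78.2 and 79.1 FPKM against 127 and 84.8 FPKM, a difference of 0.58 that was not called (limma adjusted p = 0.0948), although it was called without the second BYBX library, at 0.88. After median centring it was -0.70.

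Cohesin and condensin, the ring complexes that hold and compact chromosomes, had the smallest class median on the deposited scale and after median centring, but at the same total the oocyte Nlrp, Oog, Obox and Tcl1 families, at -0.29, and hnRNP and SR proteins, at -0.21, lay lower. Of 21 tested members 8 (38.1%) were higher and none lower, beside 63.4% of all entries higher. The median difference was 0.48, and under the GV filter 10 of 24 were higher with a median of 0.51. In rank 2 gained and 14 lost, beside 24.1% and 32.2% of all entries, with a median shift of -12.4 points. The class median was 2.92, 3.09 and 2.67 log2(FPKM + 1) with DMSO and 3.23 and 3.15 with BYBX, beside 4.36 and 3.68 in GV. The median difference was -0.18 at the same total and -0.80 after median centring. Rad21 (chromosome 15, 51962240 to 51991747, minus strand), the cohesin subunit that separase cleaves, had 12.4, 32.3 and 21.8 FPKM with DMSO and 21.0 and 13.3 FPKM with BYBX, with overlapping levels. Its percentile was 82.9, 91.9 and 87.9 with DMSO and 74.3 and 67.6 with BYBX, a shift of -16.6 points (limma adjusted p = 0.0115) that was not called without the second BYBX library, at -13.2. The condensin subunit Ncapg rose from 9.90, 12.1 and 7.87 FPKM to 37.9 and 33.4 FPKM.

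Cell cycle regulators lay between these classes. Of 21 tested cyclins, CDK1 and its regulators 15 (71.4%) were higher with a median of 1.0, beside 63.4% of all entries higher. Ccnb1, the regulatory subunit of CDK1, had 345, 315 and 279 FPKM with DMSO and 349 and 466 FPKM with BYBX. Although both BYBX libraries lay above all 3 with DMSO, its difference of 0.37 was not called (limma adjusted p = 0.216). Ensa, which inhibits the phosphatase PP2A at M phase, rose from 0.574, 0.526 and 1.2 FPKM to 17.0 and 12.1 FPKM. In the Mos-MAPK and cAMP arrest pathway 9 of 16 (56.2%) were higher with a median of 0.75. Mos, the kinase that holds the MII arrest, had 113, 129 and 144 FPKM against 182 and 234 FPKM. Its difference of 0.69 (limma adjusted p = 0.031) was negative under both other scalings and was not called without the second BYBX library or without the first or second library with DMSO, at 0.51, 0.60 and 0.69. Mapk3, which encodes ERK1, rose from 25.5, 16.1 and 45.2 FPKM to 224 and 174 FPKM.

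Of 28 tested APC/C, securin and spindle checkpoint genes 19 were higher, with a median of 1.31 and 9 gains against 7 losses of rank. The share higher, 67.9%, was near the 63.4% of all entries, of which 24.1% gained and 32.2% lost rank. Fzr1, which encodes the APC/C activator CDH1, rose from 2.42, 2.48 and 1.67 FPKM to 51.7 and 36.8 FPKM. Of 36 Aurora kinase, passenger complex and spindle assembly genes 21 were higher, with a median of 0.86. Tacc3, a spindle pole protein, rose from 1.31, 2.22 and 1.5 FPKM to 29.8 and 39.8 FPKM, and Plk4, the kinase of centriole duplication, had 36, 39.7 and 35.9 FPKM against 32.0 and 35.1 FPKM.

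The hnRNP and SR proteins had small differences, whereas the core proteins of the spliceosome lay near the median of all entries. Of 30 tested hnRNP and SR proteins, which bind pre-mRNA and steer splicing, 14 were higher and none lower, with a median of 0.62. In rank 1 gained and 13 lost, with a median shift of -8.34 points. The share higher in level was 46.7%, beside 63.4% of all entries, of which 24.1% gained and 32.2% lost rank. The median was -0.21 at the same total and -0.66 after median centring. Hnrnpa1 had 9.13, 10.5 and 9.68 FPKM with DMSO and 11 and 11.5 FPKM with BYBX (log2 difference 0.19, limma adjusted p = 0.496, negative under both other scalings), and Srsf2 4.05, 7.77 and 7.72 FPKM against 29.4 and 25.1 FPKM. The core proteins of the spliceosome had 15 gains and 7 losses of rank among 42 and a median of 0.97. Snrpc rose from 0.625, 0.583 and 0.865 FPKM to 49.6 and 28.5 FPKM, and Snrpe had 28.3, 73.8 and 62.5 FPKM against 62.1 and 30.8 FPKM.

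Of 31 tested genes of DNA methylation, imprint protection and maternal chromatin 16 were higher, with a median of 0.63. Npm2, the nucleoplasmin that remodels sperm chromatin, rose from 67.9, 138 and 138 FPKM to 1151 and 582 FPKM, whereas the Polycomb subunit Suz12 had 27.5, 52.3 and 39.7 FPKM against 46.3 and 28.4 FPKM. Of 401 listed zinc finger genes with a Zfp symbol 142 were tested and 83 higher, with a median of 0.75 and 16 gains against 61 losses of rank. Zfp707 rose from 0.0087, 0.129 and 0.452 FPKM to 12.7 and 28.1 FPKM, and Zfp616 had 12.2, 12.6 and 6.09 FPKM against 8.17 and 10.9 FPKM. Of 41 nuclear pore proteins and transport receptors 25 were higher with a median of 0.78, and 4 gained and 16 lost rank. The shares higher in these classes, 51.6%, 58.5% and 61.0% in the order given, stood beside 63.4% of all entries. Across all entries 24.1% gained and 32.2% lost rank.

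Proteins known to bind or unwind rG4s lay near the median of all entries in level. Of 24 listed 21 were tested, 12 (57.1%) were higher and none lower, with a median of 0.80, while 1 gained and 8 lost rank. The shares over all entries were 63.4% higher in level, 24.1% higher in rank and 32.2% lower in rank. The median was -0.09 at the same total and -0.48 after median centring. Dhx36 (chromosome 3, 62468013 to 62507004, minus strand), a helicase that resolves G-quadruplexes, had 2.63, 4.09 and 2.90 FPKM with DMSO and 3.42 and 4.02 FPKM with BYBX. Its level was not called different (log2 difference 0.18, standard error 0.232, limma adjusted p = 0.499), and its percentile moved from 53.0, 61.0 and 52.1 to 24.7 and 32.3 (limma adjusted p = 0.00249). Grsf1, a G-rich RNA-binding protein, rose from 2.09, 3.02 and 3.32 FPKM to 16.2 and 11.7 FPKM.

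Among the entries called lower in rank that had at least 10 FPKM in the higher MII group and ranks without overlap, Abhd17b lost most. Abhd17b, a depalmitoylase, had 9.78, 19.3 and 12.6 FPKM with DMSO and 9.45 and 9.44 FPKM with BYBX, a log2 difference of -0.46 that was not called (limma adjusted p = 0.168). Its percentile went from 79.5, 86.8 and 81.1 to 54.7 and 58.6, a shift of -25.8 points (limma adjusted p = 0.00495). Tshz1, a zinc finger protein, moved by -24.1 points, from 78.7 to 79.9 down to 50.3 and 59.7. The other 8 of the 10 largest losses within these limits were Tex12, Rbm27, Thoc7, Fbxo33, Ncapg2, Hsd17b12, Zfp616 and Larp4, none of them called lower in level. Entries of lower level lost more, with -44.7 points for Prrg1, -42.5 for Il23a, -37.9 for Gm20517 and -26.9 for Dhx36, and the first 3 of these were called lower in level. Under the same limits the largest gains were those of Fam162a and Ckb, by 82.5 and 82.3 points, followed by Rnaset2b, Psmb7 and Pdcd5.

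The 4 entries called lower in level were named after their values were seen. Prrg1, a transmembrane Gla protein, had 7.58, 10.5 and 6.83 FPKM with DMSO and 2.68 and 5.65 FPKM with BYBX (log2 difference -0.89, limma adjusted p = 0.0108). Il23a, a cytokine subunit, had 5.77, 6 and 6.14 FPKM against 2.42 and 4.95 FPKM (-0.63, limma adjusted p = 0.0402). Neither was called without the first BYBX library, where the differences were -0.46 and -0.23, and Il23a was also not called without DMSO replicate 2 or 3, at -0.63 and -0.61. Gm20517 had 1.32, 2.13 and 1.32 FPKM against 0.247 and 0.632 FPKM. Snora47, a small nucleolar RNA, is listed at 313, 0 and 692 FPKM with DMSO and at 0 in the other 4 libraries. Its call was lost in the fit of the 5 MII libraries alone (limma adjusted p = 0.059) and without the filter (limma adjusted p = 0.152), and Prrg1 was also not called without the filter (limma adjusted p = 0.0664). Il23a was not called in the 5-library fit, with a pseudocount of 0.1, with the replicate block, without the filter or under the DMSO filter (limma adjusted p from 0.053 to 0.107).

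Of 12 genes that the study names in its oocyte experiments, 11 were tested, and those not yet given differed in size. Reep2, an endoplasmic reticulum shaping protein, rose from 4.64, 5.71 and 8.09 FPKM to 39.4 and 28.4 FPKM (log2 difference 2.30, limma adjusted p = 5.33e-06). Tcf25, a factor of ribosome quality control, rose from 1.14, 2.42 and 2.32 FPKM to 11.1 and 8.27 FPKM (1.87, limma adjusted p = 1.53e-05). 1810013L24Rik had 4.67, 5.29 and 4.54 FPKM against 8.14 and 7.45 FPKM, and its difference of 0.59 (limma adjusted p = 0.0334) was negative under both other scalings and was not called on leaving out any of the 5 MII libraries, at 0.54 to 0.65. Hexdc did not pass the filter.

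Sequence features that the choice of entries did not use moved with the size of the rise. Of the 7820 entries 7510 (96.0%) matched a protein-coding transcript of GENCODE vM21 on GRCm38, and the longest one gave the features. In the shortest quintile, 303 to 1676 bases, the median difference was 1.63 and the median rank shift 7.04 points. In the longest quintile, of at least 4850 bases, they were 0.48 and -15.0 points. Spearman's coefficient across entries, which are not independent, was -0.387 for the log2 difference. The median fell along the quintiles of 3′ UTR length as well, from 1.51 to 0.58, and rose along those of GC content, from 0.51 to 1.32. With the shortest annotated transcript in place of the longest, the coefficient with length was -0.0962, and the median was 0.92 in the first quintile and 0.69 in the last. The median GV level was 35.5 FPKM in the shortest quintile and 8.29 FPKM in the longest, and its part in the trend was not tested.

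Length moved with the functional classes. The median transcript had 975 bases among cytosolic ribosomal proteins and 891.5 among oxidative phosphorylation subunits, beside 4684 among cohesin and condensin and 2235.5 in the subcortical maternal complex. Set against all entries of the same length quintile, the median member was still higher by 1.68 in the subcortical maternal complex, 1.0 in the proteasome, 0.92 in the cytosolic ribosome, 0.90 in oxidative phosphorylation and 0.89 in the mitochondrial ribosome. The same value was -0.21 in cohesin and condensin, -0.32 in hnRNP and SR proteins and 0.01 in the zinc finger genes. In rank, the median member of cohesin and condensin was only -0.22 points from entries of the same length quintile, beside its shift of -12.4 points, whereas hnRNP and SR proteins were at -6.31 and the zinc finger genes at -2.34 points.

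**Figure D4:**
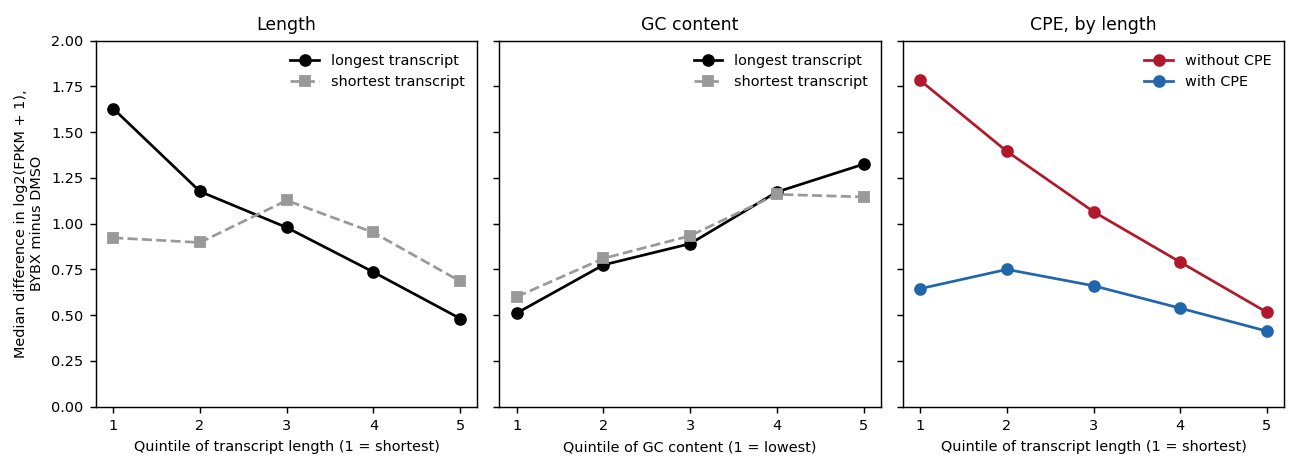
Median difference in log2(FPKM + 1), BYBX minus DMSO, in quintiles of transcript length (left), of GC content (middle), and of length for transcripts with and without a CPE (right). The first and second panels show features of the longest (circles) and of the shortest (squares) annotated transcript. Along the quintiles of the longest transcript the median falls from 1.63 to 0.48 with length, and with a CPE it lies below that without one in every length quintile.

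Transcripts with a CPE rose less than those without. The motif searched was TTTTAT or TTTTAAT on the transcript strand within the last 100 bases, and the longer form overlaps the polyadenylation signal AATAAA in TTTTAATAAA, as the shorter does ATTAAA in TTTTATTAAA. It was found in 1607 of the 7510 transcripts (21.4%). Their median difference was 0.58, against 1.02 without the motif, and the median level with DMSO was 4.06 against 2.21 FPKM, beside 15.5 and 17.3 FPKM in GV. Within the shortest length quintile the medians were 0.64 with and 1.78 without a CPE, and within the longest 0.41 and 0.51. Of the 10 entries of highest level with DMSO 9 matched a transcript and 7 of these held the motif. None of the 8 matched transcripts among the 10 largest rises did. In rank losses it was held by 5 of 10, and in rank gains by 1 of 10, beside 21.4% of all transcripts. These short lists were picked by the same levels and ranks, so their counts are a description only. Among the named genes the motif also stood in transcripts with larger rises, such as Ccdc58, Ube2t and Ncapg, with differences of 5.04, 3.19 and 1.76. The sites of 3 abundant transcripts that hardly differed, and that of Dhx36, read as follows on the transcript strand. The CPE and the polyadenylation signals AATAAA or ATTAAA are in capitals.
Bcl2l10 (GRCm38 chr9:75351589-75351618, plus strand): atTTTTAATaacttcaaattcttAATAAAt
Btg4 (chr9:51119807-51119836, plus strand): ctTTTTATgtctttttaaaagtttgattta
Hpf1 (chr8:60907554-60907580, plus strand): aaTTTTATTAAAaactttataatacgg
Dhx36 (chr3:62468015-62468044, minus strand): tgTTTTATgAATAAAgctgctctaagtgta

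A predicted rG4 went with a smaller difference in medians. A match needed 4 stretches of 3 or more G, separated by 1 to 7 bases, on the transcript strand, and 1417 of the 7510 transcripts (18.9%) held it. Their median difference was 0.78, against 0.93 without it, and they were longer, with a median of 3698 against 2825 bases. Within length quintiles the median with the motif minus that without was -0.39 in the shortest and between 0.01 and 0.05 in the other 4. With runs of 2 or more G the motif was in 97.3% of transcripts. Among the named genes the motif stood in transcripts with large and with small rises, as the following matches show, with G runs of at least 3 in capitals. Pabpn1l, Ooep, Timm17a and Tuba4a had differences of 2.40, 3.83, 5.47 and 4.20, whereas Elavl2 and Larp4 had 0.02 and -0.31.
Pabpn1l, 3′ UTR (GRCm38 chr8:122619582-122619598, minus strand): GGGcaGGGaGGGGaGGG
Ooep, 5′ UTR (chr9:78378590-78378608, minus strand): GGGGcGGGGtcGGGctGGG
Timm17a, 3′ UTR (chr1:135298536-135298563, minus strand): GGGaatcccaGGGctccaGGGGaatGGG
Tuba4a, 3′ UTR (chr1:75215140-75215159, minus strand): GGGaatGGGGGctGGGcGGG
Elavl2, 3′ UTR (chr4:91252655-91252672, minus strand): GGGctGGGGcaGGGGGGG
Larp4, 5′ UTR (chr15:99972794-99972813, plus strand): GGGaggaGGGactGGGcGGG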

How the data were processed

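FPKM values of 7 Smart-seq2 libraries were used as deposited. Per the methods and processing notes, the authors trimmed reads with Trim Galore 0.6.7, aligned them to mm10 with HISAT2 2.2.1, computed FPKM with Cufflinks 2.2.1 on UCSC gene models, and scaled values to the ERCC spike-in, using each batch's GV samples to align batches. The scaling factors are not stated, and depth is unknown. Of 25912 entries, 4 with a missing value were left out.

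limma 3.58.1 in R 4.3.3 (lmFit, eBayes, intensity trend) was fitted to log2(FPKM + 1) and to within-library percentile ranks, estimating 3 group means from all 7 libraries (4 residual degrees of freedom). The log2(FPKM + 1) scale understates changes of low transcripts. Calls used a Benjamini-Hochberg adjusted p under 0.05, and the steps were tested on simulated data. Python 3.11.15, pandas 2.3.3 and scipy 1.17.1 gave the other values, with exact permutation tests over the 5 MII libraries.

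The 38 classes and lists were chosen with earlier results of these data known. Named genes are those of the study, the largest and smallest difference per class at 10 FPKM or more, the 10 largest rises, rank gains and rank losses, the 10 most abundant with DMSO and oocyte markers. Alternatives covered pseudocount, filters, scaling, trend, replicate block and left-out libraries.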

Additional observations from a re-analysis of the deposited data

How the results depend on the processing

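The scale decides most. At the same total FPKM 2950 entries were higher and 734 lower, and after median centring 1692 and 3199. At the same total the log2 differences of 1810013L24Rik, Bcl2l10, Btg4, Cnot7, Elavl2, Gdf9, H1f8, Hnrnpa1, Mos, Oosp1, Prdx1, Pttg1, Timm23 and Upf1 turned to -0.18, -0.78, -0.81, -0.87, -0.84, -0.26, -0.58, -0.65, -0.20, -0.82, -0.58, -0.70, -0.54 and -0.77. After centring those of 1810013L24Rik, Bcl2l10, Bmp15, Btg4, Ccnb1, Cnot7, Cnot8, Dhx36, Elavl2, Gdf9, H1f8 and Hnrnpa1 were -0.69, -1.17, -0.17, -1.20, -0.91, -1.26, -0.86, -1.10, -1.26, -0.65, -0.97 and -1.09, and those of Mos, Mrpl3, Oosp1, Prdx1, Psmd1, Pttg1, Rpl13a, Sdha, Timm23, Tubb3, Upf1 and Zbed3 -0.59, -0.85, -1.21, -0.97, -0.88, -1.08, -0.22, -1.01, -0.95, -0.70, -1.18 and -0.97. Class medians were under 0 in 8 of 38 classes at the same total and in 24 after centring.

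Stricter filters gave fewer calls. The filter at 5 FPKM left 4034 entries, with 2319 higher and 2 lower in level and 1031 higher and 1328 lower in rank. The filter on the DMSO mean, added after seeing the data, left 5750, with 2900 higher and, in rank, 1041 higher and 1307 lower, and the share higher in level was 50.4% instead of 63.4%, since it takes out the entries that passed only through BYBX. The GV filter gave 2 lower in level, as did the fit of only the 5 MII libraries, and a minimum of 2-fold gave 1, and the cause was not tested. Leaving out each library in turn gave 4252 to 5004 higher and 3 to 19 lower in level, and 1699 to 1789 higher and 1894 to 2109 lower in rank. The 19 lower came without the first library with DMSO, 13 and 12 without the first and second BYBX library, and 7 without the second with DMSO.

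With the replicate number as a block, 4426 entries were higher and 3 lower in level, and 1603 higher and 1628 lower in rank. Same-numbered libraries deviated in opposite directions (correlations across entries of -0.628 and -0.368), and the sources name no batch common to them, so they share only a number. The difference in detected entries, 2877 at 1 FPKM, was 2430 at 0.1 FPKM, 2183 at 5 FPKM and 1661 at the same total, and the share of the most abundant entries differed by -5.86 points for the top 10 instead of -9.26 for the top 100. Leaving out libraries gave 2802 to 2946 and -9.55 to -8.97.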

Other observations

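Further classes had medians from 0.82 to 1.44, beside 0.89 over all entries, of which 63.4% were higher. Of 32 tested enzymes of glycolysis, pyruvate and the TCA cycle 29 were higher with BYBX, with a median of 1.42, led by the malate dehydrogenase Mdh2, from 0.249, 0.142 and 0.150 FPKM to 23.9 and 22.5 FPKM. Of 26 antioxidant enzymes 20 were higher with a median of 1.44, among them Gpx4, which removes lipid peroxides, from 0.377, 0.858 and 0.804 FPKM to 22.8 and 15.3 FPKM. Prdx1, a peroxiredoxin, had 496, 490 and 533 FPKM with DMSO and 651 and 610 FPKM with BYBX, and its log2 difference of 0.32 was not called (limma adjusted p = 0.214). Of 24 mitochondrial carriers 17 were higher with a median of 1.08, of 40 DEAD and DEAH box helicases 31 with a median of 1.09, of 28 ubiquitin-conjugating enzymes 20 with a median of 0.99, of 54 F-box proteins 36 with a median of 0.82 and of 36 Rab GTPases 24 with a median of 0.85. In DNA repair and replication 29 of 47 were higher with a median of 0.89, and among RNA polymerase II, Mediator and TAF proteins 43 of 69 with a median of 0.99. A part of each class passed only through BYBX, among them 9 of the 32 glycolysis and TCA enzymes, 8 of the 26 antioxidant enzymes and 15 of the 40 helicases. Under the DMSO filter 19 of 23, 12 of 18 and 16 of 25 of these were higher, with medians of 1.12, 1.10 and 0.78. Of all entries of that filter 50.4% were higher, with a median of 0.67. After median centring, the carriers, helicases, ubiquitin-conjugating enzymes, F-box proteins, Rab GTPases, repair genes and polymerase II genes all had medians under 0.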
